A study of Mus musculus with 8 samples.

Results

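The genes described here are 38 imprinted growth network genes, chosen by symbol from the 53465 genes of a heart ventricle RNA-seq table by a rule that uses no measured value, although earlier results of these data were known when the list was drawn up. Of these 38 members, 15 are usually expressed from the maternal copy and 23 from the paternal copy. Mouse ventricles were profiled at embryonic day 15.5 (E15.5) in 4 wild-type libraries (WT) and in 4 libraries labelled Nrg-1flox;Cdh5-CreERT2, called Flox below. In that line the promoter of the endothelial cadherin gene Cdh5 drives a tamoxifen-inducible Cre recombinase, which is meant to delete floxed neuregulin-1 sequence in endothelial cells. Each replicate was 1 ventricle according to the submitters. Strain, tamoxifen schedule, littermate relations and any allele carried by the WT embryos are not given in the sources used here, so the p-values below measure only the spread between these libraries.

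Genomic imprinting marks the maternal and the paternal copy of a gene differently in the germ line, so that in many tissues a single parental copy is transcribed. Imprinted genes lie in clusters, and within a cluster a noncoding RNA and the protein-coding genes around it are often expressed from opposite parental copies. Many paternally expressed genes, such as the members Mest and Peg3, are known to promote fetal growth, and several maternally expressed genes, such as the members Cdkn1c and Grb10, are known to restrain it. Igf2 and its clearance receptor gene Igf2r, which are imprinted as well, are not among the 38 members and are given beside them. The gene counts hold no allele information, so the parental class of each gene is textbook background and was not measured. For 10 members (Grb10, Gnas, Asb4, Slc22a18, Ascl2, Tssc4, Blcap, Slc22a3, Ddc and Inpp5f) that class depends on tissue or isoform.

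Several maternally expressed members are noncoding RNAs that carry microRNA (miRNA) hairpins. Sequences are shown because, except for those opposite to Rtl1, the levels described below are those of the transcripts that span these hairpins. The mature sequences are from RefSeq (GRCm38.p6), 5′ to 3′, with the seed (bases 2 to 8) in capitals.
miR-675-5p (in H19): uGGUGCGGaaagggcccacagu
miR-675-3p (in H19): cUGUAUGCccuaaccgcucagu
miR-770-5p (in Meg3): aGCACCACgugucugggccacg
miR-370-3p (in Rian): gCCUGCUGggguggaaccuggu
miR-410-3p (in Mirg): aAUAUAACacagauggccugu
miR-127-3p (opposite strand to Rtl1): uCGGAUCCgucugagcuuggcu
miR-136-5p (opposite strand to Rtl1): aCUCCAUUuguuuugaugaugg
miR-335-5p (in Mest): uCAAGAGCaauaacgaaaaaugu
No seed is shared among these sequences, and miR-410-3p is the one whose seed recurs in the mouse table, in 3 mature miRNAs. The miR-675 hairpin lies at chr7:142577064-142577147 inside the H19 exons, and miR-335-5p lies at chr6:30741314-30741336 inside the span of Mest. Rian held 3 hairpins and Mirg 14, while 6 of the 7 hairpins over Rtl1 were on the opposite strand. Polyadenylated RNA libraries do not measure mature miRNAs, so the values below are those of the host transcripts. For the hairpins on the strand opposite to Rtl1 no level of a host transcript is given.

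Many of the members had CpG-rich promoters, and others did not. Of the 31 members matched in the RefSeq promoter table, the richest promoter of each held a median of 13 CpG in 300 bases, against 7 over 32851 mouse promoters, and 67.7% held 10 or more against 43.5%. A member with several promoters entered by its richest one, which raises its count relative to the single promoters of the whole table. The promoter of Mest is shown because its germline-methylated region covers this start and because Mest was the highest paternally expressed member. It lies at chr6:30737800-30738099 (GRCm38, plus strand), at a start inside the annotated gene span, and is printed with its 17 CpG in capitals.
Mest promoter: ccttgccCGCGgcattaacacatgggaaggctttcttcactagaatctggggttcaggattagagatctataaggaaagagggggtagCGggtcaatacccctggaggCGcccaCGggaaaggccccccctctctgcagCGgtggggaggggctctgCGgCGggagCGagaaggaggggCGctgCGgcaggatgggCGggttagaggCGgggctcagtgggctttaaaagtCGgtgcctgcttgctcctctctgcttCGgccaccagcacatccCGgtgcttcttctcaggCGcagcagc
Of all promoters in the table, 31.4% held as many CpG or more. The richest promoters of Rian, Slc22a18 and Airn, in contrast, held 0, 2 and 3 CpG. Methylation was not measured in these libraries.

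Library totals ranged from 16761763 to 24144272 expected counts, and Flox library 4 was the shallowest. The scaling factors by trimmed mean of M values (TMM) were between 0.988 and 1.02. Among 15388 genes tested with edgeR's quasi-likelihood test, 81 passed a false discovery rate (FDR) of 0.05, 48 higher and 33 lower in Flox. Nrg1 itself was not lower in the Flox libraries: it stood at 4.87 ± 0.637 CPM (counts scaled to a common library size) in WT and 6.16 ± 0.601 in Flox (SD, n = 4 each), with an FDR of 0.311. The deleted exons are not given in the sources used here, so a whole-gene count may not report the deletion, and the groups are named by their labels throughout. In 7 of the 8 libraries both Xist and the summed Y-linked genes exceeded 20 counts, which is at odds with 1 embryo per library, and the makeup of the libraries was not resolved. The sex-linked levels varied widely between libraries, with overlapping groups. Xist was at 0.176 to 207 CPM in WT and 103 to 326 CPM in Flox, and Y-linked genes at 69.5 to 171 and 42.8 to 120 CPM. Mean Xist was 120 CPM in WT and 243 CPM in Flox (edgeR FDR 0.651), with the lowest value in WT library 4. Adding Y-linked expression to the model left 16 genes past the threshold in place of 81. Summed cardiomyocyte markers lay between 47459 and 52339 CPM in all libraries, and the 8 hepatocyte markers were each under 1 CPM.

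H19 dominated the imprinted transcripts of the E15.5 ventricle. Levels of different genes are compared as TPM, the expected counts divided by exonic length and rescaled to the same total in each library. H19, a maternally expressed long noncoding RNA, stood at 9597 ± 399 TPM in WT (SD, n = 4) and at 9937 ± 389.9 TPM in Flox, which placed it 11 from the top of all genes in WT. The gene lies at chr7:142575529-142578143 (GRCm38, minus strand) and has an exonic length of 2460 bases. Its transcripts took 0.836% of all expected counts in WT and 0.862% in Flox, whereas all 38 members together took 1.61% in both groups.

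The next member in order was Mest, a paternally expressed gene of the hydrolase fold family, at 1371 ± 118 TPM in WT and 1174 ± 132 TPM in Flox (chr6:30723547-30748465). Grb10, an adaptor that dampens insulin and IGF receptor signalling, followed at 609 ± 5.07 TPM in WT (chr11:11930508-12038683). Cdkn1c, the cyclin-dependent kinase inhibitor p57, stood at 410.3 ± 30.4 TPM, and Gnas, the stimulatory G protein alpha subunit, at 349 ± 10.1 TPM. The WT ranges of these 5 members did not overlap, although the lowest Cdkn1c library, at 366 TPM, lay close to the highest Gnas library, at 361 TPM. The order below H19 depended on division by gene length. As CPM, the WT means were 1960 for Grb10, 1916 for Mest, 1385 for Gnas and 296 for Cdkn1c, and the Grb10 and Mest ranges overlapped. In Flox, Grb10 stood at 2018 CPM and Mest at 1632 CPM. Among paternally expressed members Mest was followed by the zinc finger factor Plagl1 at 227 ± 10.1 TPM. The amino acid transporter Slc38a4 stood at 138 ± 5.06 TPM and the aromatic amino acid decarboxylase Ddc at 123 ± 7.77 TPM, and the highest Ddc library (132 TPM) overlapped the lowest Slc38a4 library (131 TPM). The zinc finger gene Peg3 came next at 67.8 ± 2.82 TPM, but as CPM it stood at 320 in WT, above Slc38a4 at 208 and Ddc at 195.

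**Figure D1:**
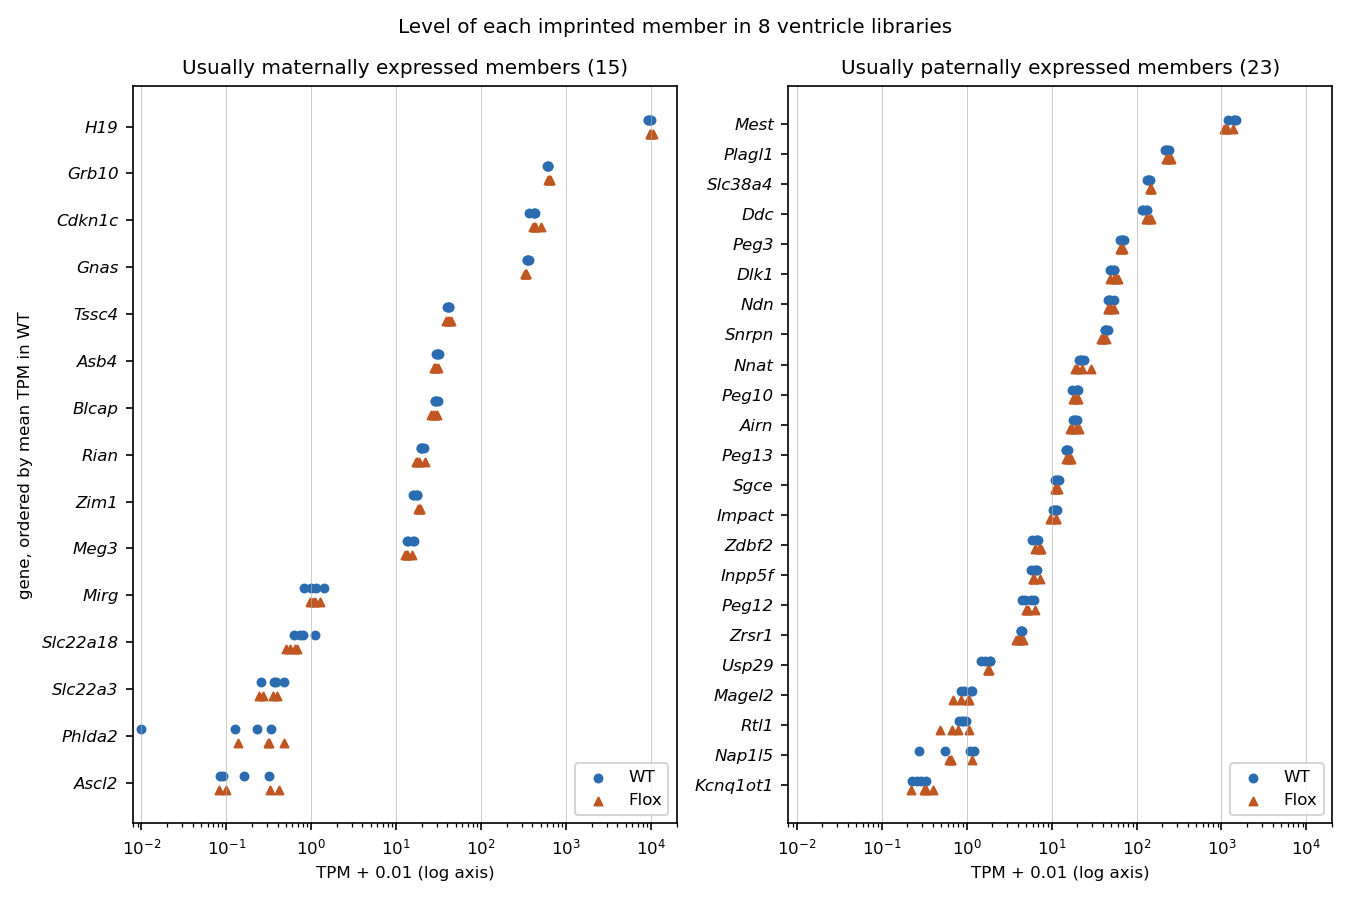
Level of each of the 38 members in every library, as TPM plus 0.01 on a log axis, with maternally expressed members on the left and paternally expressed members on the right (circles, WT, triangles, Flox). H19 at 9597 TPM lies far above the others, Mest at 1371 TPM leads the paternal class, and the WT and Flox points of most genes lie on top of each other.

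Both parental classes were broadly transcribed. In WT, 4 of the 15 maternally expressed members were at or above 100 TPM, 6 lay between 10 and 100, 1 (Mirg) lay between 1 and 10, and 4 were below 1. Of the 23 paternally expressed members, 4 were at or above 100 TPM, 10 lay between 10 and 100, 6 lay between 1 and 10, and 3 were below 1. The middle of the classes was alike in size, with a median member at 20.2 ± 0.765 TPM among maternally and 15.1 ± 0.465 TPM among paternally expressed members of the WT libraries. The lowest members were Phlda2 and Ascl2, which are known for their roles in the placenta, with 0 to 4 and 1 to 5 expected counts per library. Slc22a18 had 5 to 15 and Nap1l5 had 4 to 18, and these 4 genes were below the expression filter and were not tested.

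Summed over the members, the maternally expressed genes exceeded the paternally expressed ones about 5-fold, and this rested on H19. The maternal sum was 11121 ± 414 TPM and the paternal sum 2197 ± 134 TPM in WT, a maternal share of 83.5% ± 0.492 (SD, n = 4). In WT the share was 83.1, 83.3, 84.2 and 83.5% in libraries 1 to 4. In Flox it was 85.2, 85.0, 85.3 and 84.4%, a mean of 85.0% ± 0.408, with sums of 11493 and 2034 TPM. All Flox values lay above all WT values, and no test was made of this sum over the members. H19 gave 86.3% of the maternal sum in WT and 86.5% in Flox, and Mest gave 62.3% and 57.6% of the paternal sum.

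Without H19 the order of the classes turned: the maternal share was 41.0% ± 1.06 in WT and 43.4% ± 0.909 in Flox, so that the paternally expressed members together exceeded the rest of the maternal class. Without division by gene length, the maternal share without H19 was 51.9% ± 1.29 in WT, so that this turn depended on the scale. Much of the remaining maternal level was Grb10 and Gnas, whose imprinting depends on tissue or isoform. With H19 and the 10 members of dependent class left out together, a choice made after the values were seen, the share was 18.3% ± 0.134 in WT and 20.7% ± 0.555 in Flox. The gap between the groups depended on Mest. Without Mest, also a choice made after the values were seen, the share was 93.1% ± 0.119 in WT and 93.0% ± 0.204 in Flox, and the groups overlapped.

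**Figure D2:**
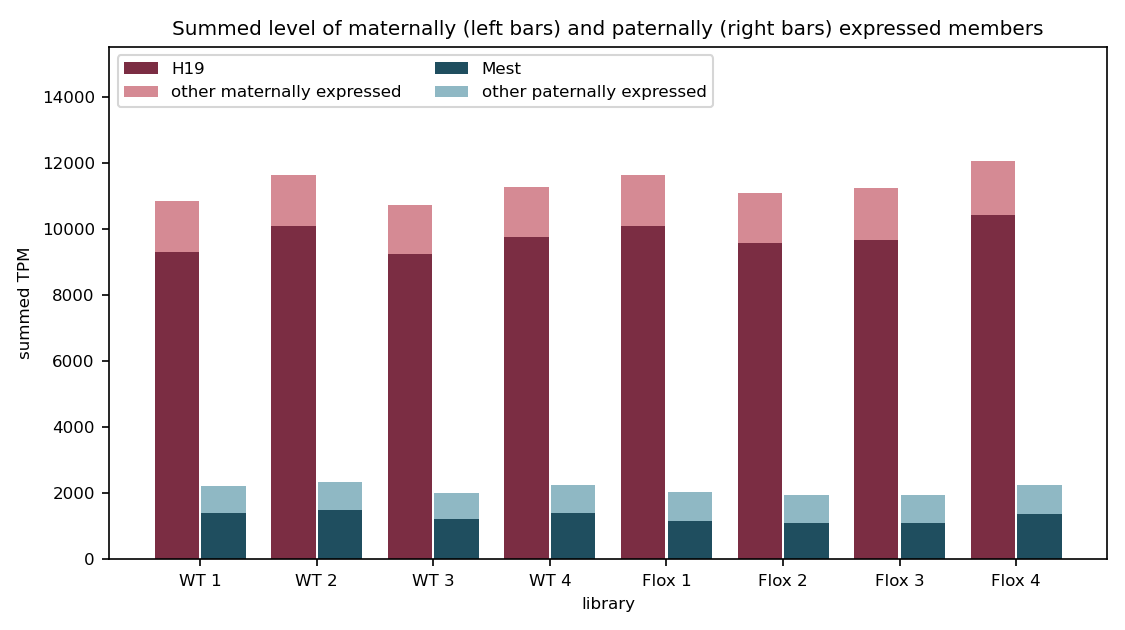
Summed TPM of the maternally expressed members (left bar of each pair) and the paternally expressed members (right bar) in each library, with H19 and Mest as the dark lower segments. H19 makes up most of every maternal bar (86.3% in WT), and the Mest segment averages 1371 TPM in WT and 1174 TPM in Flox.

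Reciprocally imprinted neighbours were compared next, 8 pairs that each hold a maternally and a paternally expressed gene. H19 and the fetal growth factor gene Igf2 share enhancers on distal chromosome 7, and the lower coordinates of their annotated spans lie 75237 bases apart. Igf2 stood at 2264 ± 109 TPM in WT and 2266 ± 109 TPM in Flox. The ratio of H19 to Igf2 was 4.24 ± 0.0899 in WT and 4.39 ± 0.0824 in Flox (SD, n = 4), with overlapping ranges. Igf2r, the maternally expressed receptor that clears IGF2, stood at 703 ± 23.4 TPM in WT and 669 ± 29.0 TPM in Flox. With Igf2 and Igf2r added to the sums, the maternal share was 72.6% in WT and 73.9% in Flox.

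In 4 further pairs the maternally expressed gene had the higher mean level. The ratio of Grb10 to Ddc was 4.96 ± 0.340 in WT and 4.57 ± 0.401 in Flox. Blcap, whose transcript contains the paternally expressed Nnat in an intron, stood at 1.32 ± 0.0707 and 1.27 ± 0.306 times Nnat, with the order turned in Flox library 4, where the ratio was 0.889. Asb4, a SOCS-box gene, stood at 1.56 ± 0.0878 and 1.55 ± 0.150 times the retrotransposon-derived Peg10. That order rested on gene length, since as CPM the ratio was 0.920 in WT and 0.913 in Flox. The ratio of Cdkn1c to Kcnq1ot1, the antisense RNA that silences this cluster on the paternal copy, was 1563 ± 291 and 1528 ± 589. Kcnq1ot1 is annotated with 93092 exonic bases, by which its counts are divided.

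In the other 3 pairs the paternally expressed gene led. The ratio of Meg3 to Dlk1, a transmembrane relative of the Notch ligands, was 0.283 ± 0.0108 in WT and 0.248 ± 0.0255 in Flox. Slc22a3, an organic cation transporter silenced on the paternal copy by Airn in the placenta, stood at 0.0193 ± 0.0052 and 0.0169 ± 0.00457 times Airn. The ratio of Zim1 to Peg3, both zinc finger genes, was 0.248 ± 0.0159 in WT and 0.282 ± 0.0127 in Flox. Zim1 to Peg3 was the only one of the 8 ratios whose groups did not overlap, with 0.237, 0.270, 0.236 and 0.248 in WT libraries 1 to 4 and 0.273, 0.295, 0.291 and 0.270 in Flox. The highest WT value and the lowest Flox value of that ratio were nearly equal, and no test was made of the ratios.

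**Figure D3:**
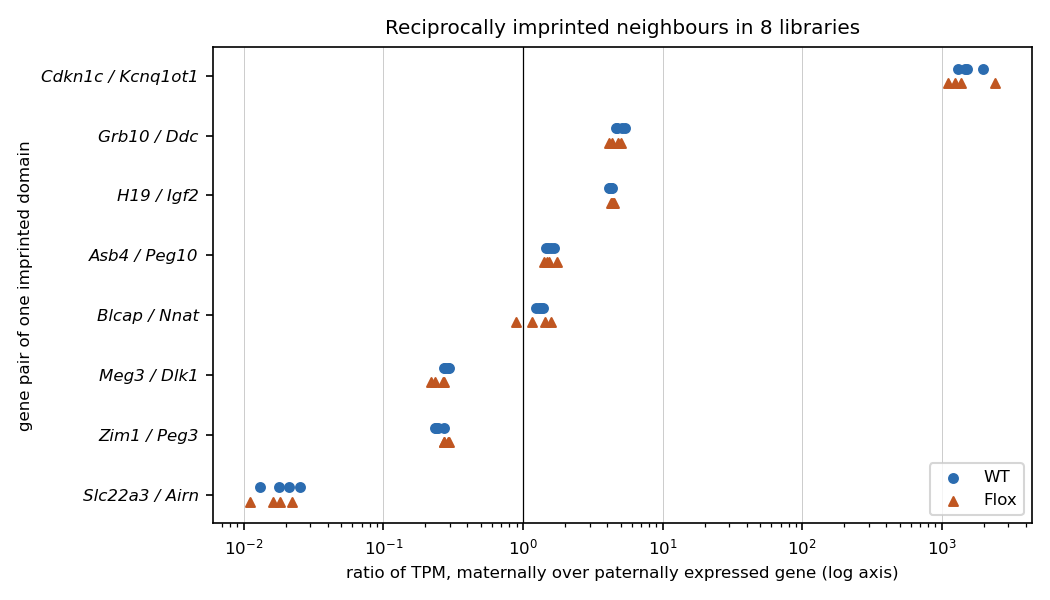
Ratio of TPM of the maternally to the paternally expressed gene of 8 neighbouring pairs in each library, on a log axis with a line at equal levels (circles, WT, triangles, Flox). Ratios span from 0.0193 for Slc22a3 to Airn to 1563 for Cdkn1c to Kcnq1ot1 in WT, and the WT and Flox points of each pair lie together.

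Between the genotypes, none of the 34 tested members passed the FDR of 0.05 in edgeR's quasi-likelihood test, against 0.526% of all tested genes. DESeq2, which called 1.29% of all genes, and limma voom, which called 0.37%, also called 0 members. At an unadjusted p under 0.05 edgeR gave 5 members, 14.7% of those tested against 10.5% of all genes: Zim1, Ddc and Slc38a4 with higher means in Flox (3 members, against 5.13% of all genes in that direction) and Mest and Gnas with lower means (2 members, against 5.41%). The CPM ranges of the groups did not overlap for 3 members (Zim1, Grb10 and Gnas), 8.82% against 6.07% of all genes. The median log2 fold change (Flox minus WT) was 0.0074 over the members and -0.0012 over all genes, and the median absolute log2 fold change was 0.075 against 0.059. For 30 of the 34 members the 95% confidence interval lay within 0.5 log2 units of 0. The others were the low genes Magel2, Rtl1 and Slc22a3, and Kcnq1ot1, whose values spread between libraries.

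The median fold change was near 0 in both parental classes. Of the 12 tested maternally expressed members, 6 had a higher and 6 a lower mean in Flox, with a median log2 fold change of -0.02. Of the 22 tested paternally expressed members, 12 were higher and 10 lower, with a median of 0.01. All 3 members without overlap were maternally expressed, 25% of the tested maternal members against 0% of the paternal members and 6.07% of all genes, and whether the classes differ in this was not tested. For Grb10 and Gnas, however, the maternal class depends on tissue or isoform. Among the 6 tested maternal members without that dependence, 1 (Zim1) was without overlap. The fold changes of Zim1, Grb10 and Gnas were all under 0.2 log2 units.

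**Figure D4:**
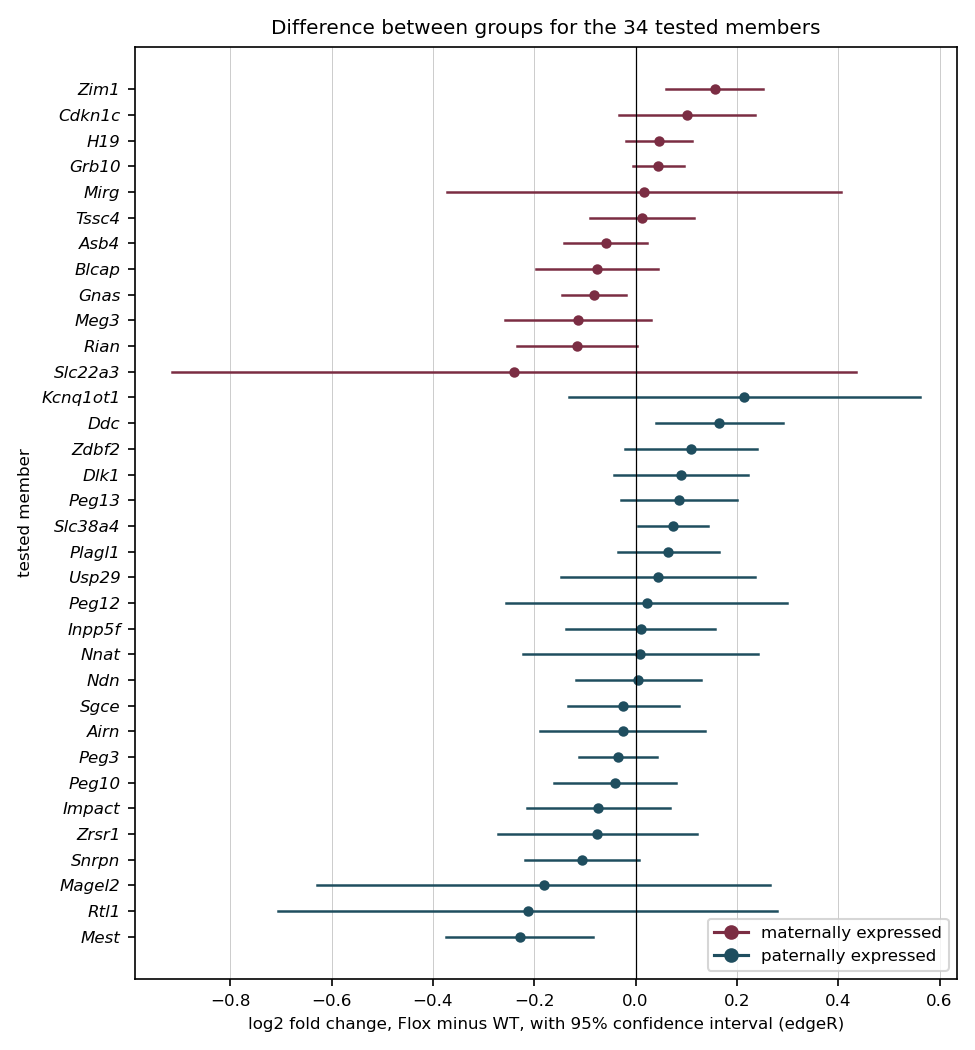
Log2 fold change (Flox minus WT) of the 34 tested members with the 95% confidence interval from edgeR, maternally expressed members above and paternally expressed members below. The values run from -0.24 for Slc22a3 to 0.21 for Kcnq1ot1, and the interval of Mest runs from -0.37 to -0.08.

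The values behind the smallest p-values are given per library as TMM-scaled CPM, in the order of libraries 1 to 4. Mest, the most abundant paternally expressed member, was at 1927, 2068, 1695 and 1973 in WT and at 1600.2, 1562, 1499 and 1867 in Flox. In 3 of 4 Flox libraries it was below all WT libraries, and Flox library 4 lay among the WT values. Its log2 fold change was -0.23 (SE 0.0671, 95% interval -0.37 to -0.08), with an edgeR p of 0.00482 and an FDR of 0.195. Without Flox library 4 the log2 fold change was -0.30 with an FDR of 0.0283, and over the 19 alternatives the FDR ran from 0.00206 with no filter on low counts to 0.504 with the Y-linked covariate. Mest shares 912 exonic bases with Copg2 on the opposite strand and its expected counts were not whole in 8 of 8 libraries. Copg2 had a mean of 122 ± 2.99 CPM over the WT and of 117 ± 3.77 CPM over the Flox libraries. Summed fibroblast markers ran from 5700.4 to 6694 CPM in WT and from 5433 to 6600.3 CPM in Flox. Flox library 4 was the highest of its group in this sum, and also in the endothelial, epicardial, erythroid and macrophage sums. In WT the fibroblast order differed, since library 2 had the lowest fibroblast sum and the highest Mest value. Summed cardiomyocyte markers stood at 50836.5, 48479, 51557 and 50588 CPM in WT libraries 1 to 4, the reverse of the Mest order. In Flox libraries 1 to 4 that sum was 51221, 52339, 51296 and 47459 CPM, lowest in library 4, where Mest was highest. The part of cell composition in the Mest values was not tested. In bulk tissue, fewer cells of a type and less RNA per cell cannot be told apart.

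Zim1, the maternally expressed neighbour of Peg3 (chr7:6671269-6696450, minus strand), was at 45.7, 50.03, 45.6 and 50.9 CPM in WT and at 51.1, 55.5, 54.7 and 52.4 CPM in Flox. All Flox values were above all WT values, the closest pair being 50.9 and 51.1. Its log2 fold change was 0.16 (SE 0.0443, edgeR p 0.00384, FDR 0.174), the smallest p among the members. Peg3 was at 318, 305, 319 and 338 CPM in WT and at 309, 309.5, 309.8 and 319.9 CPM in Flox, with an FDR of 0.807. The Peg3 values of both groups overlapped.

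Ddc, whose paternally expressed isoform is known from the fetal heart, was at 179, 208, 203 and 188 CPM in WT and at 229, 235, 201 and 208 CPM in Flox. Flox libraries 1 and 2 were above all WT libraries and the other two lay among them. The log2 fold change was 0.17 with an FDR of 0.311. Grb10, its maternally expressed neighbour, was at 1948, 1965, 1954 and 1974 CPM in WT and at 2012, 1992, 2060.1 and 2010.5 CPM in Flox. The Grb10 groups did not overlap, but they differed by a log2 fold change of only 0.04 (FDR 0.540), and Grb10 had the smallest coefficient of variation among the members in WT, 0.603%.

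Gnas was at 1413, 1354, 1416 and 1356 CPM in WT and at 1315, 1345, 1291 and 1275 CPM in Flox. Every Flox library was below every WT library, by as little as 1345 against 1354. The log2 fold change was -0.08 with an FDR of 0.329, and the locus produces several overlapping transcripts with different imprinting that a gene count cannot separate. Slc38a4 was at 209, 216, 207 and 199 CPM in WT and at 216, 218, 222 and 217 CPM in Flox. Its groups met at 216, and the FDR was 0.441. Snrpn, a spliceosomal gene of the Prader-Willi cluster that shares exons with Snurf, was at 32.4, 35.4, 32.4 and 33.2 CPM in WT and at 30.2, 33.9, 29.3 and 30.1 CPM in Flox. Flox library 2 of Snrpn lay among the WT values, and the FDR was 0.517.

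**Figure D5:**
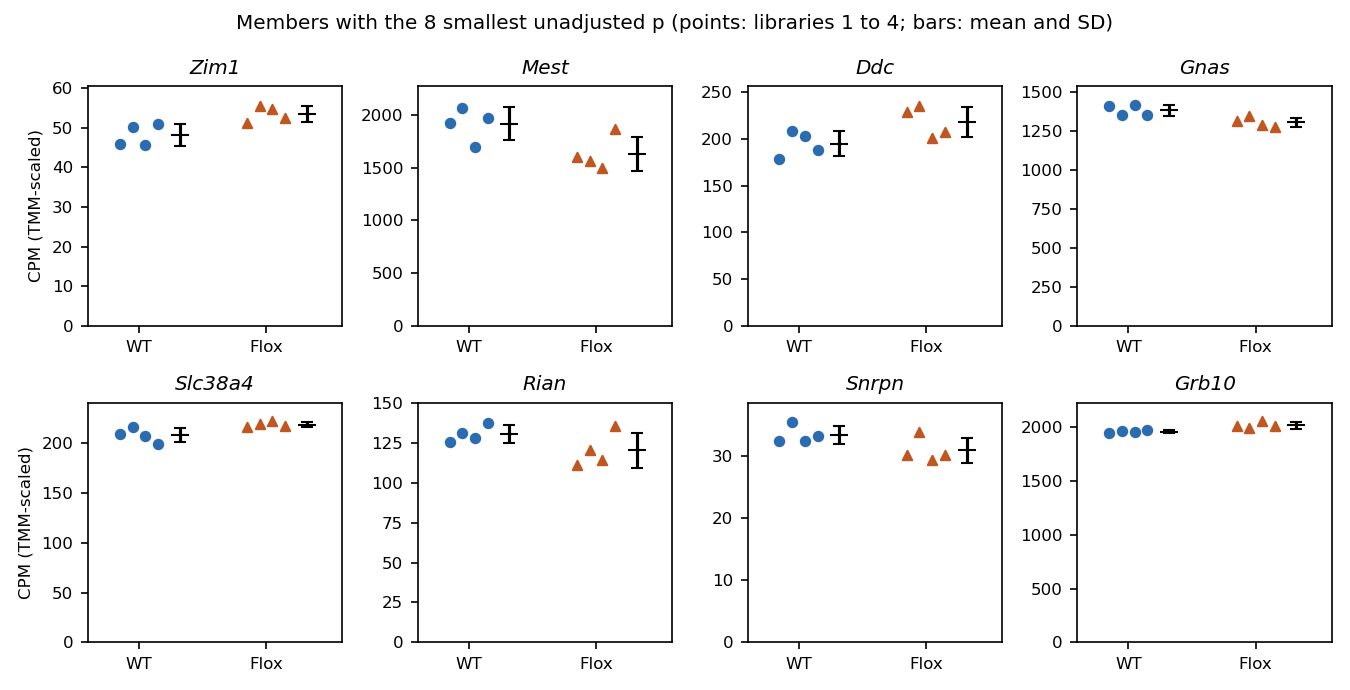
CPM of the 8 members with the smallest unadjusted p in each library (points, libraries 1 to 4 from left to right, bars, mean and SD, n = 4), with axes from 0. The groups lie close to each other in every panel, and Flox library 4 of Mest, at 1867 CPM, lies among the WT values.

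The other abundant members showed overlapping groups. H19 was at 7998, 8801, 8132 and 8529 CPM in WT and at 8748, 8488, 8365 and 8868 CPM in Flox, with a log2 fold change of 0.05 (95% interval -0.02 to 0.11, FDR 0.649). Cdkn1c was at 301, 314, 267 and 303 CPM in WT and at 308, 296, 306 and 361 CPM in Flox. The highest Cdkn1c value was that of Flox library 4, and the FDR was 0.614. Plagl1 was at 623, 667, 605 and 623 CPM in WT and at 685, 625, 703 and 615 CPM in Flox (FDR 0.684). Tssc4 was at 26.9, 27.0, 26.8 and 25.8 CPM in WT and at 26.2, 25.8, 28.8 and 26.4 CPM in Flox (FDR 0.965). None of these differences passed the test.

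The Dlk1-Dio3 cluster on chromosome 12 transcribes Dlk1 and Rtl1 from the paternal copy and the noncoding RNAs Meg3, Rian and Mirg from the maternal copy. Meg3 was at 86.8, 86.1, 104 and 100.3 CPM in WT and at 80.2, 85.9, 85.7 and 96.5 CPM in Flox (log2 fold change -0.11, FDR 0.598). Rian was at 125, 131, 128 and 138 CPM in WT and at 111, 121, 114 and 136 CPM in Flox (log2 fold change -0.12, FDR 0.493). For both RNAs Flox library 4 was the highest of its group and lay among the WT values. Dlk1 was at 98.2, 98.9, 110.1 and 108 CPM in WT and at 107, 122, 97.9 and 114 CPM in Flox (log2 fold change 0.09, FDR 0.661), and its groups overlapped.

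Meg3 and Rian tended to be high in the same libraries, a relation that did not pass 0.05 after adjustment. The Pearson r of their log2 CPM was 0.74 (exact permutation p 0.0405, 0.122 adjusted over 3 relations) and the Spearman rho 0.81 (exact permutation p 0.0218, adjusted 0.0653). Without the 2 libraries farthest from the Meg3 median r was 0.82, and with values centred on the group means it was 0.66 (exact permutation p 0.0760, adjusted 0.228). For Mirg, which stood lower at 1.07 ± 0.247 TPM, r was 0.011 to Meg3 (exact permutation p 0.980) and -0.23 to Rian (exact permutation p 0.580). Both Mirg relations changed sign without the 2 farthest libraries, to -0.54 and 0.15. For Mirg the pooled values do not describe the groups, since Mirg varied with both RNAs in opposite directions in WT and in Flox, and groups of 4 are too small for a correlation within each.

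The remaining neighbours were low and their groups overlapped. Nnat, a small membrane proteolipid gene, was at 14.1, 15.5, 13.7 and 14.5 CPM in WT and at 12.8, 12.5, 14.7 and 18.4 CPM in Flox, with Flox library 4 the highest of all. Blcap was at 32.7, 31.8, 30.7 and 31.2 CPM in WT and at 30.5, 32.9, 28.6 and 27.3 CPM in Flox. The mean of Nnat therefore rested on Flox library 4, without which its log2 fold change was -0.11. Asb4 was at 43.5, 41.8, 43.1 and 41.1 CPM in WT and at 39.5, 39.7, 40.9 and 42.5 CPM in Flox, and Peg10 at 46.6, 48.2, 48.1 and 41.7 and at 47.5, 44.1, 46.4 and 40.9. Airn was at 24.9, 24.3, 23.0 and 23.4 CPM in WT and at 24.3, 26.9, 21.8 and 20.3 CPM in Flox. These genes differed by at most 0.08 log2 units. Kcnq1ot1 was at 10.5, 7.26, 8.37 and 9.22 CPM in WT and at 12.8, 10.9, 10.1 and 6.87 CPM in Flox. Slc22a3 was at 0.555, 0.398, 0.607 and 0.746 CPM in WT and at 0.553, 0.377, 0.607 and 0.411 CPM in Flox. Kcnq1ot1 (log2 fold change 0.21, 95% interval -0.13 to 0.56) and Slc22a3 (-0.24, -0.91 to 0.43) stood at the highest and the lowest end of the members' fold changes with wide intervals, which do not exclude a moderate difference. Slc22a3 was a low gene, whereas the values of Kcnq1ot1 spread between libraries, with coefficients of variation of 15.5% in WT and 24.2% in Flox.

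The other 12 tested members had log2 fold changes from -0.21 (Rtl1) to 0.11 (Zdbf2) and FDR values from 0.577 (Zdbf2) upward. They included the Prader-Willi cluster genes Ndn, Magel2 and Peg12, the Peg10 neighbour Sgce and the Peg3 neighbour Usp29. Over the tested members the median coefficient of variation of CPM was 5.53% in WT and 7.65% in Flox, against 6.01% and 6.36% over all tested genes. The library spread of the members was therefore near that of genes in general.

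Genes of the wider imprinting network also held 0 called genes, where 0.526% of all tested genes were called. Their counts at an unadjusted p under 0.05 are read against 5.13% of all genes higher and 5.41% lower in Flox. Of 41 other imprinted genes 31 were tested and 0 were called by edgeR, with 1 higher and 2 lower at an unadjusted p under 0.05 and a median log2 fold change of -0.03. Igf2 had a log2 fold change of -0.0032 (95% interval -0.08 to 0.07, FDR 0.990), at 4502, 4874, 4369 and 4618 CPM in WT and at 4531, 4483, 4471 and 4800.1 CPM in Flox. Igf2r was at 2342, 2225, 2309 and 2397 CPM in WT and at 2285, 2114, 2243 and 2133 CPM in Flox (log2 fold change -0.08, FDR 0.434), and its groups overlapped. Of 21 genes that maintain imprints or act beside them in growth control, such as Zfp57, Trim28, Dnmt1, Ctcf and Igf1r, all 21 were tested and 0 were called by edgeR, with 1 lower and 0 higher at an unadjusted p under 0.05 and a median of 0.01.

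Cell type markers were measured beside these values, and none of the tested genes in 10 lists was called by edgeR. Of the 8 hepatocyte markers 0 were tested, and of the 8 neural markers 3. The shares at an unadjusted p under 0.05 are read against 5.13% of all genes higher and 5.41% lower. Cardiomyocyte markers were lower in Flox for 6 of 10 genes (median log2 fold change -0.01, 1 lower and 0 higher at an unadjusted p under 0.05). Fibroblast markers were lower in Flox for 8 of 10 genes (median log2 fold change -0.10, 3 lower at an unadjusted p under 0.05), and atrial markers for 8 of 8 (median -0.20, 4 lower at an unadjusted p under 0.05). Endothelial markers, of the cell type in which the Cre is expressed, were lower for 8 of 10 (median -0.08, smallest FDR 0.0584), with 5 lower and 1 higher at an unadjusted p under 0.05 and sums of 1424 to 1494 CPM in WT and 1341 to 1464 CPM in Flox. Epicardial markers were higher for 8 of 8, with sums of 174 to 185 CPM in WT and 182 to 208 CPM in Flox. Erythroid markers spread widely in both groups, from 4303 to 9386 CPM in WT and from 5880.4 to 10010.1 CPM in Flox. Mural markers ran from 1835 to 1921 CPM in WT and from 1911 to 1990.6 CPM in Flox, although 6 of the 8 genes were lower in Flox (median -0.12, 3 lower and 1 higher at an unadjusted p under 0.05). The sums of macrophage markers ran from 89.3 to 121 and from 97.8 to 139 CPM, and 5 of 8 neural markers were under 1 CPM. Epicardial markers had 2 higher and erythroid markers 1 higher at an unadjusted p under 0.05. The part of these lists in the members' values was not tested.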

How the data were processed

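Expected counts per gene were deposited by the authors, made according to the submitters' processing notes with cutadapt and RSEM 1.3.1 on GRCm38. Reads that match several genes are divided between them, and 18.1% of the deposited values were not whole. Libraries were directional and from polyadenylated RNA. The strand setting of the counting is not given in the sources used here, so antisense overlaps such as Mest and Copg2 are uncertain. The counts hold no allele information.

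Expected counts were rounded and filtered with filterByExpr by group, which left 15388 of 53465 genes, in R 4.3.3. Groups of 4 were compared with edgeR 4.0.16 (TMM scaling, glmQLFit and glmQLFTest, two-sided, group as the only term) at an FDR of 0.05 (Benjamini-Hochberg, adjusted across the 15388 genes). The fits were tested on simulated data. DESeq2 1.42.0, limma 3.58.1 voom, other scalings and filters, a Y-linked covariate, a correction for GC content and length, summing of overlapping genes and leaving out each library were alternatives. CPM was TMM-scaled. TPM used the union of exonic bases in GENCODE release M21, which matched 53360 genes. Confidence intervals are at 95%, unadjusted. Correlations used exact permutation tests. The number of libraries and the totals of each limit the precision.

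The members, the lists of other imprinted genes, imprint maintenance genes and cell type markers, and the choice of named genes were made with earlier results of these data known. Values per library are given for the 8 members with the smallest p, the 5 highest of each class by TPM in WT, and both genes of 8 domain pairs. The other members are given by range.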

Additional observations from a re-analysis of the deposited data

Results flagged for a closer look

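In 88 groups of 4 libraries, the gap of the highest or lowest library to its nearest neighbour was compared with the range of its group. A gap above Dixon's 95% critical share of the range occurred in 2 groups, where 4.4 would be expected by chance. Peg3 in Flox library 4 stood at 319.9 CPM, with the other Flox libraries between 309 and 309.8 CPM, although that value lay within the WT range. Summed macrophage markers in WT library 1 stood at 89.3 CPM, with the other WT libraries between 117 and 121 CPM.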

How the results depend on the processing

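The count of called members was 0 in the main analysis. It was 2 with no filter on low counts (Mest -0.23, FDR 0.00206, and Ddc 0.16, FDR 0.0499), and 0 to 1 when each library was left out in turn, the 1 being Mest at -0.30 without Flox library 4. The other alternatives left it at 0, and the cause was not tested. Over all genes, 81 calls (48 higher, 33 lower) became 338 (154 and 184) with no filter, 198 (103 and 95) with DESeq2, 190 (95 and 95) at an FDR of 0.1 and 16 (12 and 4) with the Y-linked level as covariate. With limma voom 57 were called, 30 of them higher. Leaving out each library gave 11 to 142 calls, 6 to 61 higher and 5 to 81 lower, lowest without Flox library 3 and highest without Flox library 4, and calls moved by more than 1.5 times for each library left out. Library 4 of Flox was the shallowest, and fewer libraries were fitted each time.

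The labels give only a replicate number that a WT and a Flox library share. Deviations of same-numbered libraries correlated at 0.0447 to 0.121 and those of other pairs at -0.0877 to 0.0195. All 4 same-numbered pairs thus lay above all 12 other pairs, although not every one exceeded 0.1. What same-numbered libraries have in common is not given in the sources used here and was not tested. Blocking on the replicate number, 93 genes (51 higher, 42 lower) and 0 members were called, against 81 genes and 0 members without the block. The FDR of Mest was 0.0557 with the block and 0.195 without it.

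Signs of small log2 fold changes reversed for Meg3 (0.0019), Peg3 (0.018), Slc22a3 (0.035), Tssc4 (-0.0035) and Igf2 (0.0053) with the Y-linked covariate, for Igf2 (0.0087) with the GC and length correction and for Nnat (-0.020) with voom. With each library left out, Airn ran from -0.103 to 0.031, Nnat from -0.114 to 0.082, Tssc4 from -0.024 to 0.035 and Igf2 from -0.027 to 0.025.

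The maternal share of 83.5% in WT and 85.0% in Flox became 76.9 and 78.3% as CPM, 80.1 and 81.7% on the longest transcript, 83.0% in WT without the members of tissue- or isoform-dependent class, and 72.6 and 73.9% with Igf2 and Igf2r. It fell below an equal share, to 41.0 and 43.4%, without H19. The median member differed by 0.42 and 0.29 log2 units of TPM plus 0.1. Chosen after seeing the data, it was 63.9 and 64.7% with Igf2 and Igf2r as CPM, 51.9 and 53.4% without H19 as CPM, 93.1 and 93.0% without Mest, 64.8 and 64.4% without both, and 18.3 and 20.7% without H19 and those members. The correlation of Meg3 with Mirg became -0.54 and that of Rian with Mirg 0.15 without the 2 farthest libraries. The Asb4 to Peg10 ratio became 0.920 and 0.913 as CPM, an alternative chosen after seeing the data.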
